A study of Mus musculus with 18 samples.

Results

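The 52 genes described here act in the last part of the cell cycle, from the end of G2 to the separation of the daughter cells. They were chosen from a list of symbols for mitotic entry, the spindle and its checkpoint, the kinetochore, mitotic kinesins and cytokinesis, with earlier results of these data known, and were sorted into 8 groups by their roles. All 52 were found by symbol among the 54309 genes of the lymphocyte table and the 13759 genes of the macrophage table. A filter on low counts left 13594 genes of the lymphocytes and 51 of the 52, and every one of the 52 was tested in the macrophages.

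The expression of these genes was measured by bulk RNA-seq of cells sorted from livers of female C57BL/6J mice carrying metastases of MC38 cells, a mouse colon adenocarcinoma line. The cells were injected into the spleen at 8 to 10 weeks of age and the livers were analyzed 20 days later. Type 1 lymphocytes, sorted as lin- CD45+ NKp46+ cells, came from metastasis-free liver (MFL) or from liver metastasis (LM) of these mice. The populations were MFL NK cells and LM CD49a- NK cells (both CD49a- CD49b+), LM CD49a+ NK cells (CD49a+ CD49b+) and MFL ILC1 (CD49a+ CD49b-), with 3 libraries each, and each library was made from a pool of 6 to 8 MFL or LM samples. Metastasis-associated macrophages (MAMs) were sorted from LM as CD45+ CD11b+ cells with high (F4/80hi) or low (F4/80low) F4/80, with 3 libraries each. LM was digested with enzymes and MFL was smashed and filtered, so site and dissociation cannot be told apart in any comparison of LM with MFL cells. The lymphocytes and the MAMs were sequenced from different kinds of library, and levels were compared only within each table. The lymphocyte pools were collected in 3 independent sortings, while for the MAMs separate sorts were not stated, and the p-values there measure the spread between these libraries.

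A dividing cell builds up cyclins A and B, which bind the kinase Cdk1. The active complex starts chromosome condensation, breakdown of the nuclear envelope and assembly of the spindle, and the checkpoint kinases hold the cell in metaphase until every kinetochore is attached. The ubiquitin ligase APC/C with its activator Cdc20 then destroys cyclin B, chromosomes separate, and anillin, Ect2 and the centralspindlin proteins divide the cytoplasm. The mRNAs of most of these proteins are made in G2, under the DREAM and MuvB complexes with B-Myb and FoxM1, and their promoters are known for CCAAT boxes, bound by NF-Y, and for the cell cycle genes homology region (CHR).

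The promoters are shown first because they are a feature that the choice of the genes did not use. Of the 52 genes, 42 had a promoter window in the RefSeq table (build GRCm38.p6), 4 of them with several windows, of which the first was taken. Ccna2, Cdc25c, Nsl1, Aurkb, Kif20a, Tpx2, Dlgap5, Stmn1, Depdc1b and Cdca2 had none. In the 250 bases before the start, searched on both strands, CCAAT was found in 34 of 42 promoters (81.0%), against 9314 of 27025 promoters in the whole table (34.5%) and 36.3% of those of protein-coding genes. At least 2 copies of CCAAT were found in 23 of 42 (54.8%), against 10.5% of all promoters. The 2 forms of the CHR that were searched, TTTGAA and TTCGAA, were found in 13 of 42 (31%), against 17.4% of all promoters, and 12 of 42 (28.6%) held CCAAT and one of these forms, against 6.21%. In 9 of 42 (21.4%) 2 CCAAT copies started 31 to 34 bases apart, against 1.17% of all promoters. That spacing was picked after the windows had been seen. Not all of this sequence lies upstream of every annotated exon. The last 120 bases before the start lay wholly in annotated exons of the same gene for Ccnb1, Aurka and Mki67, among others. A match is a description of these letters and no measurement of binding.

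The following 8 windows hold the 120 bases before the start, 5′ to 3′ on the strand of the gene, with CCAAT and the searched CHR forms in capitals. A CCAAT of the opposite strand reads ATTGG. They were taken from the 20 windows of which no more than 30 bases lie in an annotated exon of the same gene, 1 to 3 for each of 6 roles, and each was placed by exact match on GRCm39. All 8 genes are on the minus strand. They are the kinase at the centre of mitotic entry (Cdk1, chr10:69188743-69188862), a checkpoint kinase (Bub1, chr2:127673780-127673899), an NDC80 complex subunit (Spc25, chr2:69036558-69036677), a kinesin that shortens microtubules (Kif18b, chr11:102815951-102816070), a hyaluronan and microtubule binding protein of the spindle pole (Hmmr, chr11:40624265-40624384) and 3 cytokinesis genes, Ect2 (chr3:27208028-27208147), Racgap1 (chr15:99549538-99549657) and Anln (chr9:22300503-22300622).
Cdk1: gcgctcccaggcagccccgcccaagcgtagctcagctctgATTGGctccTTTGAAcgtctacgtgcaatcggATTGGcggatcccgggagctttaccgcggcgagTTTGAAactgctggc
Bub1: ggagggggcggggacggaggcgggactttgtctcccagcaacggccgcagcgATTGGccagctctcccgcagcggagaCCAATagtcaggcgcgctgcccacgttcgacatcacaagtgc
Spc25: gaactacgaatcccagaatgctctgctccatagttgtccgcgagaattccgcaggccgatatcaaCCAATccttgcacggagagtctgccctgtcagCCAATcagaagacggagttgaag
Kif18b: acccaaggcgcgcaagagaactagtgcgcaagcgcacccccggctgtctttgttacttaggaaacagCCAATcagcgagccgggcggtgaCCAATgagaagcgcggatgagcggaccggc
Hmmr: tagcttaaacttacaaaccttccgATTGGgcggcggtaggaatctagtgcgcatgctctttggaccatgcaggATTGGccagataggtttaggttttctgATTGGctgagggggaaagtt
Ect2: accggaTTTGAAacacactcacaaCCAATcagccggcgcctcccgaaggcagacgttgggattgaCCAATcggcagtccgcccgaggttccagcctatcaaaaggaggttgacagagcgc
Racgap1: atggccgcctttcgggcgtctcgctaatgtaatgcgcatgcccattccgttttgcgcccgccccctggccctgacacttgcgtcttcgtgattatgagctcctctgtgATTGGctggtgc
Anln: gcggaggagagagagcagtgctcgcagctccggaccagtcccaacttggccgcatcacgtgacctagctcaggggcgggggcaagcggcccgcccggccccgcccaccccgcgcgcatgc

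In Cdk1, CCAAT lies 80 and 48 bases before the start and TTTGAA 71 and 15 bases before it, so the 2 motifs alternate. Spc25 has CCAAT 55 and 23 bases before the start, the same distance apart as the pair in Cdk1. Anln holds none of these letters in its whole 250-base window, although it was the gene with the largest difference between the MAM subsets.

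Depth and identity were checked before the results. Total counts per library lay between 8795721 and 14386834 in the lymphocytes and between 21278959 and 32267015 in the MAMs, and 9608 to 13218 lymphocyte genes reached 10 counts. Itga1, which encodes CD49a, had mean levels of 11.5 and 11.4 CPM (counts scaled to a common library size by TMM) in the CD49a- populations of MFL and LM, of 134 CPM in LM CD49a+ NK cells and of 663 CPM in MFL ILC1, in the order of the sort. Adgre1, which encodes F4/80, averaged 146 ± 19.0 CPM in F4/80low and 958 ± 187 CPM in F4/80hi MAMs (SD, n = 3). LM CD49a- NK replicates 1 and 2 had the fewest detected genes of the 12 lymphocyte libraries, 9885 and 9608, and low total counts, 9252160 and 8795721. The 51 genes tested were often at 0 there, with 14 and 19 of the 52 at 0 counts, against 4 in replicate 3. MFL ILC1 replicate 1 had 17 at 0 and no MFL NK library had any.

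The clearest difference lay between the MAM subsets, where the comparison asks how macrophages with high F4/80 differ from those with low F4/80 inside the same metastases. The summed level of the 52 genes was 1457, 1480 and 1236 CPM in the F4/80low libraries and 3882, 3740 and 3105 CPM in the F4/80hi libraries. Each F4/80hi library was above each F4/80low library, and the mean was 2.57 times as high, 3576 ± 414 against 1391 ± 135 CPM (SD, n = 3). In bulk RNA a larger share of dividing cells and more mRNA per dividing cell cannot be told apart, here or in any result below.

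All 52 genes were called higher in F4/80hi MAMs by edgeR's quasi-likelihood test at a Benjamini-Hochberg adjusted p under 0.1, where 27.8% of the 13759 genes tested were. Their median log2 fold change was 1.43 (2.69-fold), with a range of 0.49 to 2.00, while the median of all genes was 0.01. In 46 of the 52 the log2 fold change was called and above 1, against 11.1% of all genes, and in 51 of the 52 the libraries of the subsets did not overlap, against 29.8%. The medians of the 8 roles lay close together, from 1.35 for spindle assembly to 1.71 for cytokinesis.

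**Figure D1:**
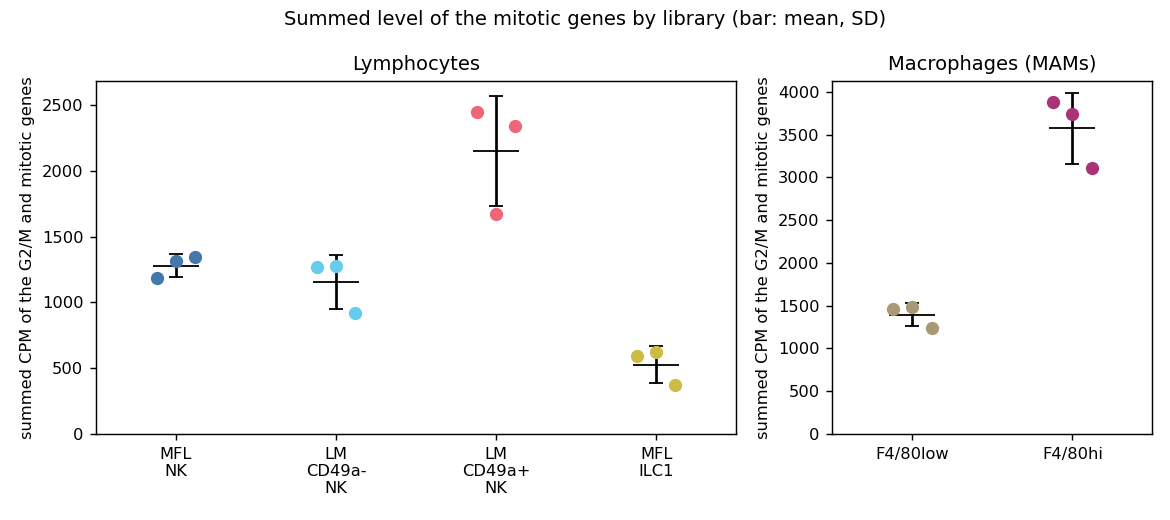
Summed level of the genes in each library, in CPM on a linear axis from 0, for the 4 lymphocyte populations (left) and the 2 MAM subsets (right). Points are libraries, and bars give the mean and SD of 3; the F4/80hi libraries lie between 3105 and 3882 CPM, above the F4/80low libraries at 1236 to 1480 CPM, and the LM CD49a+ NK libraries lie above the other lymphocytes.

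The kinases, cyclins and regulators of mitotic entry had log2 fold changes from 0.49 to 1.90, with a median of 1.46. Cdk1 was at 20.8, 19.8 and 17.1 CPM in F4/80low and at 78.9, 79.6 and 56.3 CPM in F4/80hi MAMs. The lowest F4/80hi library was thus far above the highest F4/80low library, and the log2 fold change was 1.90 (SE 0.15, edgeR adjusted p = 3.31e-05). Cdk1 is one of 4 genes, with Mki67, Stmn1 and Top2a, that the study had picked as proliferation genes of these MAMs, so its direction is not independent evidence.

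Ccnb1, the cyclin B1 partner of Cdk1, was at 15.4, 14.7 and 11.5 CPM in F4/80low and at 59.3, 56.0 and 39.6 CPM in F4/80hi MAMs. Its log2 fold change was 1.89 (SE 0.18), close to that of Cdk1. Plk1, a kinase that promotes entry and spindle assembly, had a log2 fold change of 1.72 (SE 0.14), Ccna2 (cyclin A2) of 1.46 (SE 0.13) and Ccnb2 (cyclin B2) of 1.42 (SE 0.16). The phosphatase genes Cdc25b and Cdc25c, whose products remove the inhibitory phosphates of Cdk1, had values of 1.34 (SE 0.11) and 1.63 (SE 0.29), and Aurka, the spindle pole kinase Aurora A, of 1.25 (SE 0.15).

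Cks2, a small subunit that binds Cdk1, was the member that differed least. It was at 15.9, 11.8 and 12.1 CPM in F4/80low and at 20.7, 20.9 and 14.3 CPM in F4/80hi MAMs. It was the only one of the 52 whose libraries overlapped, and its log2 fold change was 0.49 (SE 0.18, edgeR adjusted p = 0.0552).

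The spindle checkpoint and APC/C genes were all called. Ttk, the Mps1 kinase that starts checkpoint signaling, had a log2 fold change of 1.62 (SE 0.14), Bub1 of 1.25 (SE 0.14) and Bub1b, the BubR1 subunit of the checkpoint complex, of 1.19 (SE 0.10). Cdc20, which the checkpoint restrains, was at 18.7, 17.5 and 15.0 CPM in F4/80low and at 54.9, 54.8 and 42.6 CPM in F4/80hi MAMs. Its libraries did not overlap and its log2 fold change was 1.57 (SE 0.13). Ube2c, the ubiquitin-conjugating enzyme of the APC/C, had a value of 1.45 (SE 0.15).

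Within the centromere and kinetochore group the log2 fold changes ran from 0.58 to 1.62. The outer kinetochore genes Cenpf, Nuf2, Cenpe, Spc25 and Ndc80 had log2 fold changes between 1.25 and 1.62. Cenpa, the centromeric histone H3 variant, was at 45.9, 34.2 and 37.2 CPM in F4/80low and at 80.3, 63.9 and 51.3 CPM in F4/80hi MAMs, without overlap, and its log2 fold change was 0.74 (SE 0.17, edgeR adjusted p = 0.00842). Hjurp, the chaperone that loads Cenpa, had 0.58 (SE 0.10) and Nsl1, a Mis12 complex subunit, 0.79 (SE 0.12). Whether these 3 differ from the outer kinetochore genes was not tested.

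The chromosomal passenger complex had log2 fold changes of 1.44 for Birc5 (survivin), 1.37 for Cdca8 (borealin) and 1.23 for Aurkb (Aurora B), each with an SE of at most 0.15. Among the mitotic kinesins, Kif2c, which depolymerizes microtubules at the kinetochore, was at 11.3, 10.8 and 8.95 CPM in F4/80low and at 41.3, 37.1 and 33.0 CPM in F4/80hi MAMs. The subsets did not overlap, and its log2 fold change of 1.84 (SE 0.13, edgeR adjusted p = 1.51e-05) was the largest of the 8 kinesins. Kif11, the motor that pushes the spindle poles apart, had 1.17 (SE 0.14), and Kif23, a centralspindlin motor, 1.15 (SE 0.11).

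Among the spindle assembly genes Hmmr led with a log2 fold change of 1.76 (SE 0.12, edgeR adjusted p = 1.48e-05), followed by Ckap2 with 1.66 (SE 0.14). Tpx2, which activates Aurora A on the spindle, had 1.39 (SE 0.13), and Stmn1, the microtubule destabilizer stathmin, 1.35 (SE 0.13). Psrc1, the gene that was too low for a test in the lymphocytes, was at 4.10, 4.00 and 3.07 CPM in F4/80low and at 8.87, 6.91 and 6.03 CPM in F4/80hi MAMs, with a log2 fold change of 0.96 (SE 0.21). It did not overlap between the subsets.

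The cytokinesis genes held the largest difference of the whole list. Anln, the scaffold of the contractile ring (ENSMUSG00000036777.9, chr9:22242402-22300501 on GRCm39), was at 19.0, 20.4 and 16.2 CPM in F4/80low and at 74.2, 79.0 and 69.7 CPM in F4/80hi MAMs. The gap between the subsets was much wider than the spread within either, with a log2 fold change of 2.00 (SE 0.11, edgeR adjusted p = 4.93e-06). Ect2, which activates RhoA at the cleavage plane, had 1.78 (SE 0.16), Prc1, which bundles the central spindle, 1.71 (SE 0.13) and Racgap1, the GTPase-activating subunit of centralspindlin, 1.34 (SE 0.13).

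Of the chromosome proteins, Mki67, which coats mitotic chromosomes and is the antigen of the Ki-67 stain, was at 155, 194 and 150 CPM in F4/80low and at 450, 456 and 449 CPM in F4/80hi MAMs. The F4/80hi libraries were nearly equal, and the log2 fold change was 1.44 (SE 0.11). Top2a, the topoisomerase that untangles sister chromatids, had 1.26 (SE 0.13). The gene for the phosphatase targeting subunit Cdca2 had 1.81 (SE 0.19) and Cdca3, which triggers the loss of Wee1, 1.39 (SE 0.13).

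**Figure D2:**
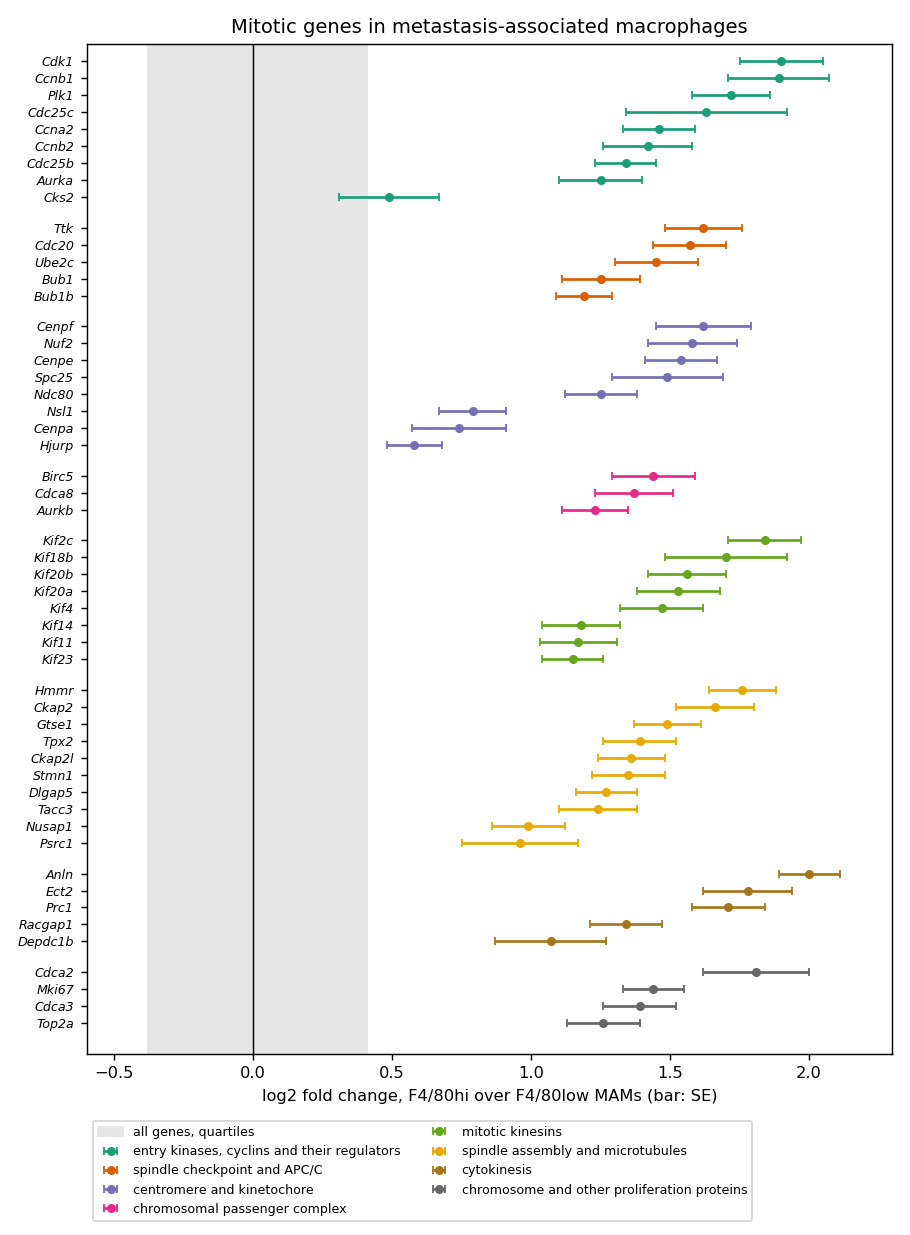
Log2 fold change of each of the 52 genes, F4/80hi over F4/80low MAMs, with its SE as a bar and genes grouped and coloured by role. The grey band spans the quartiles of all 13759 genes, from -0.38 to 0.41, and every gene lies to the right of it, from Cks2 at 0.49 to Anln at 2.00.

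Genes around these in the pathway were read from 5 further lists. Of 59 other genes of the mitotic machinery, 58 (98.3%) were called higher in F4/80hi MAMs, where 27.8% of all genes were. The median log2 fold change of that list was 1.27, and Pimreg with 2.05 (SE 0.19) and Pbk with 1.97 (SE 0.14) led it. The exception was Pttg1 (securin), which holds separase inactive, at 17.5 ± 1.94 against 17.3 ± 2.45 CPM (SD, n = 3). Of 15 genes of DNA replication and S phase, 15 were called higher (median 1.04), against the same 27.8% of all genes.

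The regulators were mixed. Of 18 genes for G2/M transcription regulators, 11 (61.1%) were called higher and 1 (5.56%) lower, where 27.8% and 27.1% of all genes were. Foxm1, a transcription factor of G2 genes, averaged 90.8 ± 8.75 CPM in F4/80hi and 29.6 ± 3.49 CPM in F4/80low MAMs (log2 fold change 1.62, SE 0.12), and Mybl2, which encodes B-Myb, 37.2 ± 5.62 against 16.0 ± 2.34 CPM (1.22, SE 0.14). The NF-Y subunit genes Nfya, Nfyb and Nfyc had values of -0.04, -0.08 and -0.12, none of them called. Of 17 genes for APC/C subunits and inhibitors, 12 (70.6%) were called higher and 1, Anapc16, lower (5.88%), against the same shares of all genes. Their median log2 fold change was 0.33. The value was 1.33 (SE 0.17) for Fbxo5, which encodes the APC/C inhibitor Emi1.

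A list of 14 brakes on the cell cycle was not limited to genes specific to mitotic entry. Of these 14, 5 (35.7%) were called higher and 8 (57.1%) lower, where 27.8% and 27.1% of all genes were. The 5 were Wee1 (1.19, SE 0.13) and Pkmyt1 (0.73, SE 0.10), the kinases that phosphorylate Cdk1, the checkpoint kinases Chek1 (14.6 ± 2.34 against 6.02 ± 0.576 CPM) and Chek2 (1.01, SE 0.12), and Cdkn1c (0.79, SE 0.33). Those that fell in F4/80hi MAMs included the CDK inhibitors Cdkn1a, at 154 ± 14.1 against 378 ± 80.7 CPM (log2 fold change -1.29, SE 0.16), and Cdkn1b (-0.80, SE 0.08). The antiproliferative genes Btg2 (-2.07, SE 0.19) and Btg1 (-1.75, SE 0.19) also fell, as did Gadd45b (-2.23, SE 0.29), a stress gene.

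Markers of other cells were read in the same MAM libraries. The summed level of 10 NK and ILC1 markers was 69.1 to 85.1 CPM in F4/80low and 6.45 to 12.02 CPM in F4/80hi MAMs. The 3 tumor epithelium markers in the table, of 10 listed, summed to 11.3 to 21.1 CPM in F4/80low and to 1.67 to 2.21 CPM in F4/80hi MAMs, and 5 neutrophil markers to 7.31 to 127 CPM and to 0.283 to 0.324 CPM. These were thus lower in the subset in which the mitotic genes were higher. Higher there were 11 macrophage and monocyte markers (18740 to 24190 against 10950 to 13360 CPM), 6 hepatocyte markers (367 to 728 against 215 to 245 CPM) and 6 endothelial and stellate markers (154 to 213 against 46.9 to 125 CPM), and B cell markers overlapped. The part of these cells in the mitotic values was not tested.

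In the lymphocytes, the question was how LM CD49a+ NK cells compare with the NK cells of the same metastases and with NK cells and ILC1 outside them. In LM CD49a+ NK cells the 52 genes summed to 2445, 1670 and 2340 CPM. MFL NK libraries were at 1183, 1314 and 1343 CPM, those of LM CD49a- NK cells at 1268, 1276 and 917 CPM, and those of MFL ILC1 at 589, 625 and 368 CPM. Each LM CD49a+ NK library was above all others, each MFL ILC1 library was below all others, and the libraries of the remaining 2 populations overlapped. Mki67 and Top2a made up much of the sum, and without them the LM CD49a+ NK libraries were at 1505, 1104 and 1442 CPM and the MFL NK libraries at 857, 895 and 890 CPM. LM CD49a+ NK cells had the highest mean of the 4 populations for 41 of 51 genes, against 26% of all genes, and MFL ILC1 the lowest for 37 of 51, against 24.1%. The 51 include Cenpf, Tpx2, Kif20a, Depdc1b and Nsl1, which the study placed in an LM CD49a+ NK signature drawn from these libraries. Counts of genes higher in LM CD49a+ NK cells, here and below, are thus not fully independent of that choice.

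The spread between libraries was wide. The median coefficient of variation of these genes was 0.285 in MFL NK cells, 0.511 in LM CD49a+ NK cells, 0.779 in MFL ILC1 and 0.989 in LM CD49a- NK cells, where the medians of all genes were 0.266, 0.560, 0.328 and 0.689. In the MAM subsets it was 0.124 and 0.138. Ttk shows what this means for 1 gene, with 0, 27.7 and 0 CPM in the LM CD49a- NK libraries.

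**Figure D3:**
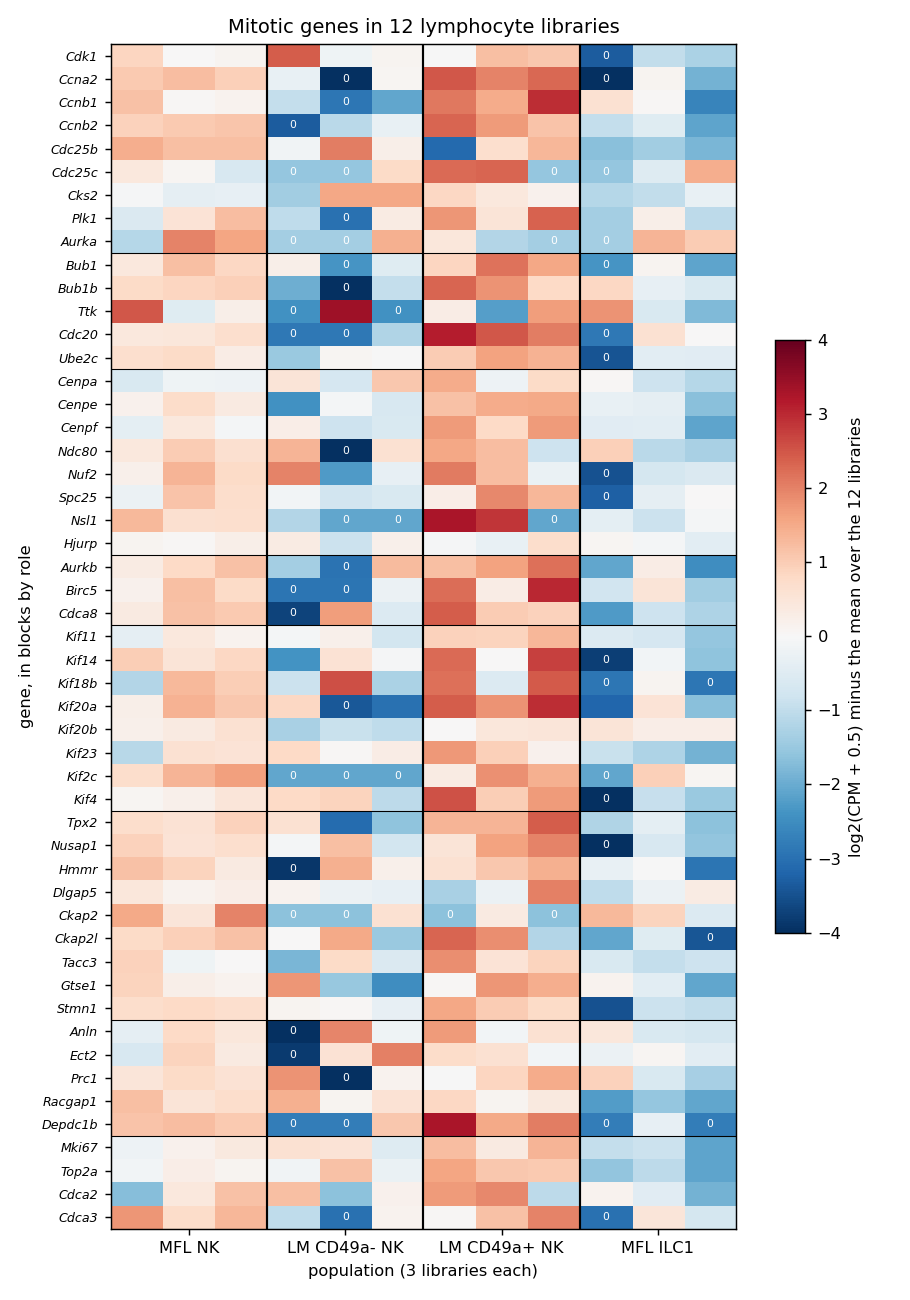
Level of 51 genes (rows, in blocks by role) in the 12 lymphocyte libraries (columns, 3 per population), as log2(CPM + 0.5) minus the mean of the gene over the 12 libraries; red is above and blue below that mean, and 0 marks a library without counts. LM CD49a+ NK libraries are mostly red and MFL ILC1 libraries mostly blue, and LM CD49a- NK libraries change from gene to gene.

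In the comparison inside LM, of CD49a+ with CD49a- NK cells, no gene of the 51 passed the adjusted p of 0.1 by edgeR in either direction, where 0.0662% of all genes were called higher and 0.0736% lower. At an unadjusted p under 0.05 there were 16, each higher in LM CD49a+ NK cells, where 11.6% of all genes passed in either direction. The value was above 0 in 43 of 51 (50.5% of all genes), with a median log2 fold change of 1.23 against 0.01 for all genes. In 20 of 51 every LM CD49a+ library was above every LM CD49a- library (5.72% of all genes). The signature genes named above are among the 51 in these counts. The medians of the roles ran from 0.26 for cytokinesis to 2.66 for entry kinases and cyclins. DESeq2, an alternative test, called 10 of the 51 higher, where it called 2.09% of all genes higher. Limma-voom with quality weights called none of the 51 and 0% of all genes, with 14 of the 51 at an unadjusted p under 0.05 against 5.49% of all genes.

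Bub1b and Cenpf shared the smallest adjusted p. Bub1b was at 57.2, 39.2 and 19.1 CPM in LM CD49a+ NK cells and at 2.45, 0 and 5.36 CPM in LM CD49a- NK cells. The populations did not overlap, and the log2 fold change was 3.87 (SE 1.09, edgeR adjusted p = 0.28). Cenpf, a farnesylated kinetochore protein, was at 108, 57.8 and 109 CPM against 39.9, 18.3 and 21.4 CPM, with a log2 fold change of 1.79 (SE 0.51, edgeR adjusted p = 0.28). Cenpf, like Tpx2, Kif20a, Depdc1b and Nsl1, belongs to the LM CD49a+ NK signature that the study drew from these libraries, so its direction is not independent evidence.

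The regulators of mitotic exit showed wide gaps at low counts. Cdc20 was at 31.6, 20.02 and 14.6 CPM in LM CD49a+ NK cells and at 0, 0 and 1.103 CPM in LM CD49a- NK cells, with a log2 fold change of 5.82 (SE 1.92, edgeR adjusted p = 0.334). Ccnb1 was at 15.6, 9.93 and 28.2 CPM against 1.45, 0 and 0.394 CPM (4.85, SE 1.72, edgeR adjusted p = 0.366). Neither gene overlapped between the populations, and both failed the adjustment over all genes.

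Kif2c was listed at 0 counts in each LM CD49a- NK library and at 2.13, 6.88 and 5.08 CPM in LM CD49a+ NK cells. Its mean in LM CD49a+ NK cells was 15.6 times a floor of 3 counts per LM CD49a- NK library (edgeR adjusted p = 0.3 for the comparison). In MFL NK cells Kif2c was at 2.94, 4.86 and 6.09 CPM, with a mean 15.4 times the same floor (edgeR adjusted p = 0.561 against LM CD49a- NK cells). These ratios are no lower bound, since a gene at 0 in some LM CD49a- NK libraries could be well detected in another, as Ttk was. Cenpe, a kinetochore motor, had a log2 fold change of 2.20 (SE 0.65, edgeR adjusted p = 0.286), Kif20b of 1.42 (SE 0.43, edgeR adjusted p = 0.286) and Tpx2 of 2.46 (SE 0.79, edgeR adjusted p = 0.331), each with no overlap between the populations. Tpx2 was at 44.2, 44.1 and 91.97 CPM against 25.96, 1.55 and 5.20 CPM.

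Of the remaining genes of the signature, Kif20a, the kinesin MKLP2 that brings the passenger complex to the midzone, was at 27.4, 17.8 and 40.2 CPM in LM CD49a+ NK cells and at 8.80, 0 and 0.158 CPM in LM CD49a- NK cells, without overlap (3.25, SE 1.62, edgeR adjusted p = 0.449). Depdc1b was at 32.2, 9.07 and 13.5 CPM against 0, 0 and 6.54 CPM, again without overlap (3.05, SE 1.98, edgeR adjusted p = 0.581). Nsl1 was at 19.9, 14.9 and 0 CPM against 0.446, 0 and 0 CPM, and overlapped at 0 (6.22, SE 2.32, edgeR adjusted p = 0.375). None of these passed the adjustment over all genes.

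Further genes with no overlap were spread over the roles. Ccna2 was at 43.4, 30.8 and 37.9 CPM in LM CD49a+ NK cells and at 5.91, 0 and 7.72 CPM in LM CD49a- NK cells (3.03, SE 1.4, edgeR adjusted p = 0.422). Birc5 was at 17.2, 4.15 and 30.1 CPM against 0, 0 and 2.68 CPM (4.23, SE 1.78, edgeR adjusted p = 0.399). Kif11 was at 56.9, 55.3 and 76.5 CPM against 28.5, 34.2 and 17.9 CPM (1.23, SE 0.46, edgeR adjusted p = 0.375). Kif11 thus had counts in every library and a smaller SE than the genes at 0 in some. Stmn1 was at 96.3, 66.02 and 55.2 CPM against 34.98, 33.5 and 25.8 CPM (1.21, SE 0.53, edgeR adjusted p = 0.415). Plk1, Bub1 and Ube2c, also without overlap, had log2 fold changes of 2.66 (SE 1.60), 2.5 (SE 1.97) and 1.79 (SE 1.4).

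Other central genes did not separate these populations. Cdk1 was at 4.45, 11.2 and 10.2 CPM in LM CD49a+ NK cells and at 26.3, 3.99 and 4.96 CPM in LM CD49a- NK cells. Replicate 1 of the latter was the highest of all 12 libraries, and the log2 fold change was -0.45 (SE 1.38, edgeR adjusted p = 0.953). Mki67 was at 612, 331 and 667 CPM against 396, 374 and 179 CPM, with overlap, and Top2a at 328, 235 and 231 CPM against 101, 250 and 92.6 CPM, where replicate 2 of LM CD49a- NK cells lay inside the range of LM CD49a+ NK cells. Their log2 fold changes were 0.76 (SE 0.35) and 0.84 (SE 0.35).

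Anln, which differed most between the MAM subsets, was at 26.1, 7.04 and 12.1 CPM in LM CD49a+ NK cells and at 0, 31.02 and 6.77 CPM in LM CD49a- NK cells, with full overlap (0.26, SE 1.30, edgeR adjusted p = 0.976). Prc1 was at 16.4, 30.9 and 47.9 CPM against 59.9, 0 and 18.6 CPM (0.28, SE 1.1, edgeR adjusted p = 0.968), and Racgap1 had a log2 fold change of -0.33 (SE 0.36). Each of these 3 cytokinesis genes overlapped between the populations. Cdc25b was at 2.32, 38.4 and 60.9 CPM against 21.8, 101 and 28.6 CPM (-0.57, SE 0.75), and its LM CD49a+ NK replicate 1 was the lowest of the 12 libraries. Cenpa (0.36, SE 0.49), Ndc80 (0.51, SE 1.19) and Aurkb (1.9, SE 1.66) overlapped as well. Aurka reached 2.99 CPM at most in an LM NK library, and Ckap2 1.89 CPM.

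Leaving out single libraries shifted these values. Without LM CD49a- NK replicate 2 the median log2 fold change of the list was 1.80 in place of 1.23, and 1 gene, Top2a, was called (log2 fold change 1.45, edgeR adjusted p = 0.0813). Without LM CD49a- NK replicate 1 the 1 gene called was Tpx2, and without replicate 3 the 3 were Bub1b, Cdc20 and Birc5. The share of all genes called in these fits is not given here, so the counts have no background beside them.

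Against MFL NK cells, LM CD49a+ NK cells again had no called gene of the 51, where 0.427% of all genes were called higher and 0.221% lower. The value was above 0 in 44 of 51 (47.8% of all genes) with a median log2 fold change of 0.83, and 4 passed an unadjusted p under 0.05 (9.74% of all genes in either direction). In 15 of 51 every LM CD49a+ NK library was above every MFL NK library (7.06% of all genes). The 4 were Top2a (1.17, SE 0.35, edgeR adjusted p = 0.258), Cenpf (1.47, SE 0.50), Mki67 (0.93, SE 0.35) and Cenpa (1.17, SE 0.49). The next by p were Kif11 (0.97, SE 0.46), Kif4 (1.65, SE 1.08), Cenpe (0.97, SE 0.63) and Tpx2 (1.09, SE 0.76). Cenpf and Tpx2 belong to the study's signature, so their direction is not independent evidence here either. Of the rest of the signature, Kif20a had 1.53 (SE 1.51), Depdc1b 1.39 (SE 1.87) and Nsl1 1.75 (SE 1.88), none of them called. For Top2a the MFL NK libraries were at 102, 132 and 119 CPM, each below the 3 LM CD49a+ NK libraries. DESeq2, limma-voom and a fit of these 2 populations alone each called 1 gene higher, which was Top2a, where they called 1.4%, 1.49% and 0.483% of all genes higher. Site and dissociation cannot be told apart here.

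LM CD49a- NK cells had lower values than MFL NK cells for 39 of 51 genes (44.6% of all genes were higher), with a median log2 fold change of -0.53 against -0.09 for all genes, and no gene was called by edgeR (0.0662% of all genes were called higher and 0.00736% lower). At an unadjusted p under 0.05 there were 3 (6.72% of all genes in either direction), which were Kif20b, Kif2c and Bub1b, and in 14 of 51 every LM CD49a- NK library was the lower (12% of all genes). Kif20b, a kinesin of the central spindle, was at 12.03, 16.2 and 14.7 CPM in LM CD49a- NK cells and at 34.5, 39.2 and 45.9 CPM in MFL NK cells, without overlap (-1.48, SE 0.43, edgeR adjusted p = 0.481). Bub1b had -2.95 (SE 1.05), Nsl1 -4.47 (SE 2.15), Cdc20 -3.6 (SE 1.74), Cenpe -1.23 (SE 0.63), Ccnb1 -3 (SE 1.58) and Tpx2 -1.37 (SE 0.77), each with an edgeR adjusted p of at least 0.699. DESeq2 called Kif20b and Kif2c lower, and 0.449% of all genes. The median was -1.09 without LM CD49a- NK replicate 2.

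**Figure D4:**
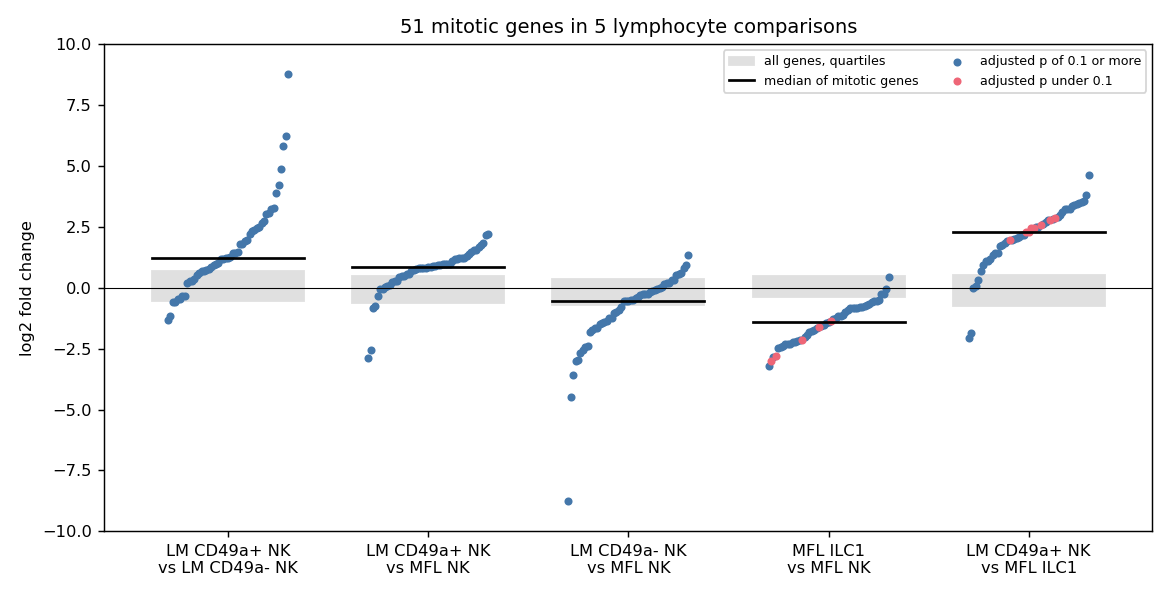
Log2 fold change of the 51 genes tested in each of the 5 lymphocyte comparisons, in rising order, with the median of the genes as a black line and the quartiles of all 13594 genes as a grey box; red points passed an adjusted p under 0.1 (5 in MFL ILC1 against MFL NK cells, 8 in LM CD49a+ NK cells against MFL ILC1). The comparisons share populations, and the outermost points, at 8.77 and -8.75, are Kif2c, whose fitted value depends on the prior count because LM CD49a- NK cells had none.

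Outside the metastases, MFL ILC1 had lower values than MFL NK cells for 50 of 51 genes (50.4% of all genes were higher), with a median log2 fold change of -1.39 against 0.01 for all genes. By edgeR 5 were called lower and none higher, where 1.68% of all genes were called lower and 1.38% higher, and in 27 of 51 every MFL ILC1 library was below every MFL NK library (13.1% of all genes). DESeq2 and limma-voom with quality weights also called none higher, where they called 2.41% and 9.5% of all genes higher. At an unadjusted p under 0.05 there were 9, all of them lower (8.37% of all genes in either direction).

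Racgap1 (ENSMUSG00000023015.15, chr15:99518377-99551998 on GRCm39) was at 12.4, 20.3 and 13.7 CPM in MFL ILC1 and at 140, 85.6 and 97.1 CPM in MFL NK cells. No ILC1 library came near an NK library, and the log2 fold change was -2.80 (SE 0.38, edgeR adjusted p = 0.000253). Cdc25b was at 7.13, 8.93 and 6.44 CPM against 67.2, 56.2 and 55.6 CPM (-2.99, SE 0.81, edgeR adjusted p = 0.0712). Stmn1 was at 2.46, 17.9 and 16.0 CPM against 52.8, 56.9 and 52.1 CPM (-2.15, SE 0.55, edgeR adjusted p = 0.0479). Top2a and Mki67 had values of -1.62 (SE 0.36, edgeR adjusted p = 0.0173) and -1.35 (SE 0.36, edgeR adjusted p = 0.0578), also with no overlap. The next by p, not called, were Kif23 (-1.54, SE 0.65), Tpx2 (-1.78, SE 0.78) and Nusap1 (-2.42, SE 1.13).

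The count of 5 rests on every library of both populations. It was 2 to 4 when any 1 of the 6 was left out, and 2 without MFL NK replicate 2, MFL NK replicate 3 or MFL ILC1 replicate 3, and 3 without MFL NK replicate 1 or MFL ILC1 replicate 1. Racgap1 was called each time. The share of all genes called in these fits is not given here, so these counts have no background beside them. With limma-voom and quality weights 26 of the 51 were called lower, where 9.96% of all genes were. The 8 T cell markers summed to 272 to 703 CPM in MFL ILC1 and to 127 to 135 CPM in MFL NK cells, and most of the higher sum was Cd3g, at 472 ± 226 against 6.21 ± 2.80 CPM (SD, n = 3). Lef1 of the same list went the other way, at 21.2 ± 1.71 against 119.5 ± 4.49 CPM, and Cd3e was at 0.122 and 0.612 CPM. B cell markers summed to 138 to 184 against 30.4 to 73.1 CPM. The part of these markers in the result was not tested.

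LM CD49a+ NK cells and MFL ILC1, which share CD49a, were compared last. By edgeR 8 genes were called higher in LM CD49a+ NK cells, where 2.29% of all genes were, and the median log2 fold change was 2.3 against -0.07. The value was above 0 in 48 of 51 genes (46.6% of all genes), and in 29 of 51 every LM CD49a+ NK library was above every MFL ILC1 library (9.33% of all genes). At an unadjusted p under 0.05 there were 20, where 14.1% of all genes passed in either direction. Site and dissociation cannot be told apart in these values. Between the same libraries, endothelial and stellate markers summed to 222 to 292 CPM in LM CD49a+ NK cells and to 122 to 144 CPM in MFL ILC1. Macrophage and monocyte markers summed to 386 to 622 against 145 to 291 CPM, and T cell markers to 110 to 166 against 272 to 703 CPM. Only 2 of the 7 endothelial and stellate markers had counts in LM CD49a+ NK cells, against 4 in MFL ILC1. Col1a1, Cdh5 and Stab2 were at 0 in the former and not in the latter. Of the 11 macrophage and monocyte markers, 7 had counts in LM CD49a+ NK cells and 11 in MFL ILC1. The part of these markers was not tested.

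Top2a (ENSMUSG00000020914.18, chr11:98883769-98915062 on GRCm39) was at 36.5, 52.9 and 25.2 CPM in MFL ILC1, far below LM CD49a+ NK cells, with a log2 fold change of 2.79 (SE 0.37, edgeR adjusted p = 0.000281). Mki67, at 132, 140 and 59.4 CPM in MFL ILC1, had 2.28 (SE 0.37) and Racgap1 2.44 (SE 0.38). The others were Stmn1 (2.58, SE 0.56), Cenpf (2.3, SE 0.52), Kif11 (1.95, SE 0.47), Kif23 (2.44, SE 0.67) and Tpx2 (2.87, SE 0.81, edgeR adjusted p = 0.0793). The count fell to 5 without MFL ILC1 replicate 2 and to 4 without MFL ILC1 replicate 3, where the share of all genes called is not given. The count was 13 with no filter on low counts, 17 by DESeq2 and 22 by limma-voom, which called 2.16%, 3.94% and 3.88% of all genes higher.

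**Figure D5:**
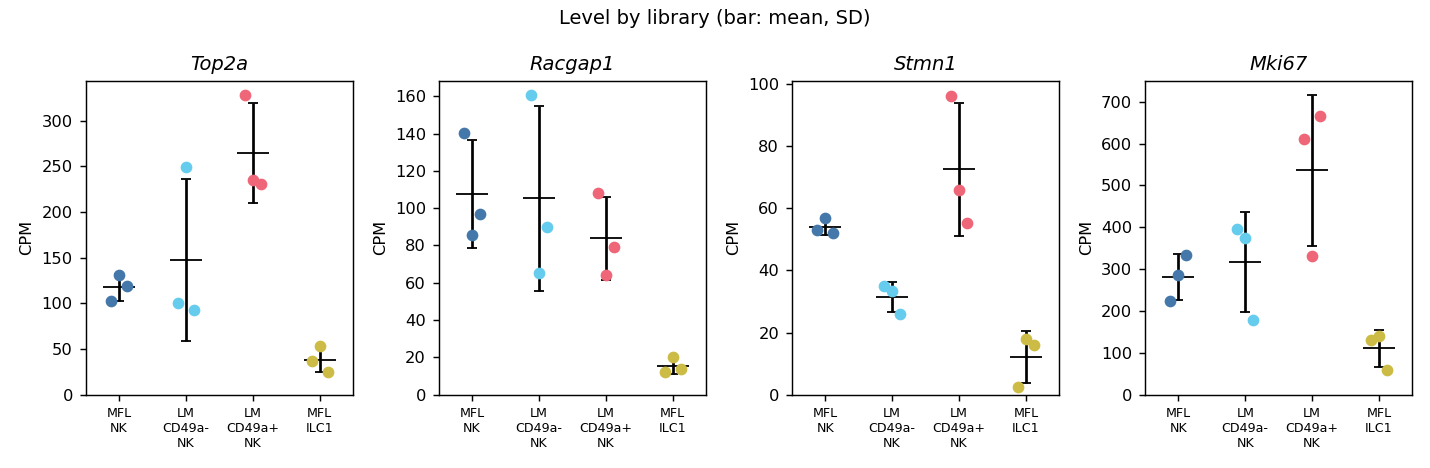
CPM of Top2a, Racgap1, Stmn1 and Mki67 in each lymphocyte library, on linear axes from 0, with the mean and SD of 3 as bars. All 4 are lowest in MFL ILC1, and Racgap1 has means of 108, 105 and 83.8 CPM in MFL NK, LM CD49a- NK and LM CD49a+ NK cells, while Top2a, Stmn1 and Mki67 are highest in LM CD49a+ NK cells.

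The same step, from CD49a- to CD49a+ cells, could be compared between the sites, as the difference between the log2 fold change of LM CD49a+ over LM CD49a- NK cells and that of MFL ILC1 over MFL NK cells. This comparison was added after the data had been seen. Its populations do not match fully, since LM CD49a+ NK cells are CD49b+ and MFL ILC1 are CD49b-. Site and cell type therefore cannot be told apart in the difference. By edgeR the difference was called above 0 for 4 of 51 genes (0.625% of all genes), which were Top2a, Racgap1, Stmn1 and Mki67. It was called below 0 for none, and the share of all genes that edgeR called below 0 is not given here. DESeq2 and limma-voom called none of the 51 below 0 either, where they called 1.18% and 0.397% of all genes below 0. For Racgap1 the log2 fold changes were -0.33 (SE 0.36) in LM and -2.80 (SE 0.38) in MFL, and for Stmn1 they were 1.21 (SE 0.53) and -2.15 (SE 0.55).

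Few genes around the list were called in the lymphocytes. Of 58 other mitotic genes tested, none was called by edgeR in a comparison among NK populations or between MFL ILC1 and MFL NK cells. The condensin gene Ncapd2 alone (1.72% of the 58) was called higher in LM CD49a+ NK cells than in MFL ILC1 (1.31, SE 0.34, edgeR adjusted p = 0.0567), where 2.29% of all genes were. At an unadjusted p under 0.05 there were 9 of the 58 inside LM (15.5%, against 11.6% of all genes) and 7 against MFL ILC1 (12.1%, against 14.1%). The G2/M transcription regulators, the APC/C genes and the brakes had no call by edgeR in the 5 lymphocyte comparisons. At an unadjusted p under 0.05 there were at most 3 regulators (16.7%) and 3 brakes (21.4%), both against MFL ILC1. There 14.1% of all genes passed. Of the APC/C genes at most 1 passed (5.88%), inside LM, where 11.6% of all genes did. Of the 15 replication genes, Mcm7 (6.67%) passed the test inside LM, where 0.0662% of all genes were called higher. Mcm7 was at 118 ± 28.7 CPM in the CD49a+ and 43.4 ± 1.70 CPM in the CD49a- NK cells (SD, n = 3, log2 fold change 1.44, edgeR adjusted p = 0.0887). Against MFL ILC1, Mcm7 and Mcm6 (13.3%) were called higher in LM CD49a+ NK cells, where 2.29% of all genes were.

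Markers of other cells were also read in the NK libraries of LM. Adgre1 and Mertk of the macrophage list were at 0 in both LM NK populations, while the 11 macrophage and monocyte markers together summed to 386 to 622 CPM in LM CD49a+ and to 245 to 635 CPM in LM CD49a- NK cells. The 10 tumor epithelium markers summed to 0 to 16.3 CPM in the former and to 1.33 to 25.96 CPM in the latter, with Krt8, Krt19 and Cdx2 at 0 in both. B cell markers summed to 117 to 121 CPM in LM CD49a+ against 15.9 to 83.2 CPM in LM CD49a- NK cells, and their part was not tested.

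Near copies of 4 of the genes are annotated, and could share reads. In the lymphocyte table the copies of Ccnb1 and Kif4 had 0 counts in all 12 libraries, that of Ccnb2 had 2 against 1094 for the gene and that of Stmn1 had 34 against 5906. None of the 4 copies is a row of the MAM table. Psrc1, which failed the filter in the lymphocytes, had 97, 3 and 9 counts in MFL NK cells, 0, 8 and 4 in MFL ILC1, and 0 in all LM libraries.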

How the data were processed

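RNA was sequenced from 12 pools of sorted type 1 lymphocytes and 6 libraries of sorted MAMs. Per the labels and methods, the authors quantified both with Salmon (1.5.0 for the lymphocytes, after Trim Galore, and 1.10.0 for the MAMs) and deposited tables of estimated counts per gene. The lymphocyte libraries were total RNA and the MAM libraries poly(A) RNA, so each table was analyzed on its own. The smallest row total of the MAM table was 37, and every gene in it passed the filter used here. No column of per-sample values was left unmapped.

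Estimated counts were rounded, rows were named by GENCODE gene ID, and edgeR 4.0.16 (filterByExpr, TMM, quasi-likelihood test) was run in R 4.3.3 in 1 fit of the 12 lymphocyte libraries and 1 of the 6 MAM libraries. Adjusted p-values are Benjamini-Hochberg over all genes tested, with calls under 0.1, and limma 3.58.1 and DESeq2 1.42.0 served as alternatives. CPM values use TMM-scaled library sizes. The pipeline was tested on simulated data. LM CD49a+ NK libraries carry ILC1 in their titles and were grouped by the cell type label. Statistics are printed for the 8 members with the smallest adjusted p in each comparison, for representatives of each role in the MAMs and inside LM, and for the genes the study names. Other members and genes of the lists were picked as examples after their values had been seen. The members, lists and rules were chosen with earlier results of these data known, and the difference between LM and MFL steps was added after the data had been seen. Promoters came from a RefSeq table of GRCm38.p6 and were placed on GRCm39 by exact match. Single-cell, flow cytometry and human data of the study were not analysed here.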

Additional observations from a re-analysis of the deposited data

Results flagged for a closer look

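For 4 genes the step from CD49a- to CD49a+ NK cells in LM differed from the step from NK cells to ILC1 in MFL. This was edgeR's quasi-likelihood test of the difference, LM CD49a+ over LM CD49a- NK cells minus MFL ILC1 over MFL NK cells, in log2. The LM step lies within NK cells and the MFL step between NK cells and ILC1. Site and cell type therefore cannot be told apart in it. The difference was 2.46 for Top2a (SE 0.50, adjusted p = 0.0299) and 2.47 for Racgap1 (SE 0.52, adjusted p = 0.0342). It was 3.36 for Stmn1 (SE 0.77, adjusted p = 0.0558) and 2.11 for Mki67 (SE 0.50, adjusted p = 0.067). Top2a was called whichever of the 12 libraries was left out. Racgap1 was not called without MFL NK replicate 1 (adjusted p = 0.125). Stmn1 was not called without any one MFL NK library or LM CD49a+ NK replicate 1 (highest adjusted p = 0.152). Mki67 was not called without MFL NK replicates 2 or 3, LM CD49a+ NK replicates 1 or 3, or MFL ILC1 replicates 1 or 3 (highest adjusted p = 0.166). Single libraries were not tested for standing apart, since groups of 3 are too small.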

How the results depend on the processing

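With 3 libraries a group, an exact test of 1 gene cannot go below p = 0.1. In the MAMs the count of genes called higher was 51 to 52 whichever library was left out and 52 with DESeq2, limma-voom or the replicate block. RLE size factors changed no direction or call. With no low-count filter, edgeR called higher 4 genes inside LM, 2 in LM CD49a+ against MFL NK cells, 13 against MFL ILC1 and 9 in the difference between sites. DESeq2 called 10, 1, 17 and 14, and 2 lower in LM CD49a- against MFL NK cells. Limma-voom with quality weights called 1 higher against MFL NK cells, 22 against MFL ILC1 and 7 in the difference between sites, and 26 lower in MFL ILC1, and its medians were 1.93 (inside LM), 0.65 (LM CD49a+ against MFL NK cells), -1.63 (LM CD49a- against MFL NK cells) and 3.67 (difference). Fits of 2 groups only called 1 against MFL NK cells. In the difference between sites these settings called 0.691% (no filter), 1.38% (DESeq2) and 0.927% (limma-voom) of all genes higher. With no filter the share was 0.473% inside LM and 1.08% in LM CD49a+ against MFL NK cells.

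Over 18 pairs of lymphocyte libraries with the same replicate number the correlation of deviations was -0.0452 to 0.0981. Of 3 MAM pairs, 1 was above 0.1. With groups of 3 these values cannot decide whether the replicate numbers pair the libraries, and the main fit used no block. With the replicate block the medians were 1.51 inside LM, -0.83 in LM CD49a- against MFL NK cells and 3.42 in the difference, 6 genes were called against MFL ILC1, and Aurka inside LM turned to 2.54.

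Leaving out single libraries gave 0 to 3 calls inside LM (medians 1.08 to 1.8), 2 to 4 lower in MFL ILC1, 4 to 8 against MFL ILC1, and 2 to 7 in the difference (medians 2.61 to 3.41). Shares of all genes called are not given for these fits or for the replicate block, so their counts have no background beside them. The medians of LM CD49a- against MFL NK cells were -1.09 to -0.43. Inside LM signs were followed for the genes with the smallest p, the role representatives and the signature genes, not for every member. Of those followed, 8, none of them called, turned for some library. Ranges were -0.86 to 0.94 for Cdk1, -4.34 to 5.39 for Aurka, -0.07 to 1.35 for Ndc80 and -0.14 to 0.79 for Cenpa. They were -0.31 to 1.76 for Prc1, -0.4 to 2.14 for Anln, -1.3 to 0.42 for Cdc25b and -5.9 to 5.56 for Ckap2. Limma-voom gave 0.19 for Cdk1 and -0.08 for Cenpa. Over all named genes and settings, 1060 values kept direction and side of the threshold, 42 gained a call, 41 lost one and 16 turned. The causes were not tested.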
